A study of Mus musculus with 18 samples.

Results

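Genes of the heat-shock proteins and of the DnaJ proteins, which work together as the cell's protein-folding machinery, were followed in testis and spermatocytes of mice with 1 or 2 mutant copies of Zfp541. The members are every gene whose symbol starts with Hspa, Hspb, Hspd, Hspe, Hsph, Hsp90, Dnaja, Dnajb or Dnajc and goes on with digits and lower-case letters only, pseudogenes left out. This took 74 of the 55291 gene symbols measured at P18. They were sorted by textbook knowledge into 10 testis members, 8 stress-induced, 9 cytosolic, 10 endoplasmic reticulum, 8 mitochondrial, 5 nuclear and RNA members and 5 small heat-shock members of muscle, with 2 that share the name only (Hspb11 and Hspbap1) and 17 other members.

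RNA with poly(A) tails was sequenced in 18 libraries of male C57BL/6J mice, 3 in each of 6 groups. Het mice were heterozygous (Zfp541+/-) and KO mice homozygous (Zfp541-/-) for the mutation, and both were sampled as testis at postnatal day 14 (P14), testis at P18 and spermatocytes at P18. The labels call the 3 libraries of a group biological replicates but do not tie each to an animal, so p-values measure the spread between these libraries. The labels give neither the kind of mutation nor how spermatocytes were isolated, and the reference group itself carries 1 mutant copy, since no wild-type library was analysed here.

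Chaperones of the Hsp70 family (Hspa genes) bind unfolded stretches of protein and release them on a cycle of ATP hydrolysis that J-domain proteins (Dnaj genes) start, while Hsp90 proteins finish selected clients and small heat-shock proteins (Hspb genes) hold unfolded protein against aggregation. Most cells keep constitutive members running and switch on inducible ones through heat-shock factor when protein is damaged. Male germ cells also use members of their own that are switched on in meiosis or later, among them Hspa2, an Hsp70 needed for meiotic prophase in spermatocytes.

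Values are RPKM in P14 testis and spermatocytes and FPKM in P18 testis, that is reads or fragments scaled to gene length and library size, so levels of different genes can be set side by side. The total behind a library, read back from the steps between low values, was 9.26 to 18.31 M reads for spermatocytes, 17.96 to 21.12 M for P14 testis and 12.81 to 16.95 M for P18 testis. Differences are KO less Het on the scale of log2(value + 0.5), and adjusted p-values are from limma with Benjamini-Hochberg adjustment over every gene tested, where under 0.05 counts as a rise or a fall. Zfp541 itself was at 7.59, 9.13 and 9.28 in the P14 Het libraries and at 3.18, 3.93 and 4.98 in KO (limma adjusted p = 0.0784), not past the threshold. In P18 testis its mean fell from 25.0 ± 4.26 to 10.3 ± 1.03 (SD, n = 3, limma adjusted p = 0.00408), and among spermatocyte libraries from 42.4 ± 11.2 to 12.5 ± 0.874 (limma adjusted p = 0.000654). With P14 KO replicate 3 left out the adjusted p was 0.0366. Summed over 10 Sertoli cell markers, spermatocyte libraries held 31.0 to 91.7 against 1437 to 1982 in P18 testis, and summed over 9 markers of pachytene spermatocytes, Het spermatocyte libraries held 926 to 1956 and KO 46.7 to 67.6. Pachytene markers were therefore low in the libraries labelled spermatocytes of KO mice, while 8 spermatogonia markers summed to 451 to 534 there, against 244 to 363 in Het. In whole testis and in the spermatocyte libraries alike, another mix of cells and another amount of RNA per cell cannot be told apart.

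The promoters of stress-induced and testis members are printed first, because heat-shock factor acts through the heat-shock element, an array of GAA units facing each other, which textbook inducible genes carry. Sequences are from RefSeq on GRCm38.p6, 5′ to 3′ on the gene's strand, and capitals mark GAANNTTC or TTCNNGAA, the arrangements of 2 facing units. Windows were placed where no annotated exon lies.
Hspa1a, chr17:34972227-34972286, minus strand: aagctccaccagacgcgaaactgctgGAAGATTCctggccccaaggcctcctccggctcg
Hspa1b, chr17:34959309-34959368, minus strand: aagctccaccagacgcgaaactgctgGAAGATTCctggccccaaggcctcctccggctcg
Hspb1, chr5:135887789-135887848, plus strand: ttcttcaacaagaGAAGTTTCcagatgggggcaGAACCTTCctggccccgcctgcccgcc
Dnajb4, chr3:152193846-152193905, minus strand: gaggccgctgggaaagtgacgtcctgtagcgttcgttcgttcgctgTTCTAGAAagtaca
Dnajb3, chr1:88205819-88205878, minus strand: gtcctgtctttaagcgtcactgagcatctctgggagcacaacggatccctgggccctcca
Hspb9, chr11:100713729-100713788, plus strand: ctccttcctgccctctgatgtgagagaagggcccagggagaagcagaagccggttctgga

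Bases are counted from the RefSeq start. The gene coordinates given with each member are from GENCODE, which places the starts of Dnajb3 and Hspb9 nearer to these windows, and Dnajb4 has another RefSeq start further upstream. The windows of Hspa1a and Hspb1 lay 130 to 71 bases before the start, and those of Hspa1a and Hspa1b, neighbours on chromosome 17, were identical. The Dnajb4 window ends at its start, that of Dnajb3 lies 130 to 71 and that of Hspb9 begins 200 bases before it, and neither of the latter holds a capital. Over the whole promoter table (250 bases before to 50 after each start), GAANNTTC was found on either strand in 7.86% of 32851 promoters, TTCNNGAA in 8.52%, and the array of 3 alternating units, which overlaps both, in 0.603%. Members with more than 1 promoter were counted if any of them matched, while these shares are per promoter. Of the 7 stress-induced members with a promoter in the table, 5 held GAANNTTC (Hsph1 only after its starts) and 2 held TTCNNGAA. Of 9 testis members, 1 held GAANNTTC (Dnajc5g, after its start) and 0 held TTCNNGAA. Arrays of 3 units were found in 4 of 60 members, Hsph1, Dnajb6 and the pair Hspd1 and Hspe1 on chromosome 1, where the same bases were read from opposite strands. These matches describe letters only, and a window without them says nothing about binding.

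Testis members were the class with the lowest median difference between KO and Het in all 3 sets. In P18 testis 6 of the 8 that could be tested fell in KO (17% of all genes tested fell), and in spermatocytes 6 of 6 (25.1% of all genes tested). They are given one by one, with values rescaled within each set of 6 libraries. A gene low in KO can pass the filter through its Het libraries, so these counts describe the members that passed and support nothing by themselves. P14 and P18 values were normalized separately, so levels set side by side across ages are descriptions.

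Hspb9, a small heat-shock protein gene of male germ cells (chromosome 11, 100713850 to 100714575, plus strand, 1 exon), was at 98.4, 54.7 and 38.1 FPKM in the P18 Het testis libraries and at 1.09, 1.27 and 0.624 in KO. In spermatocytes it was at 55.8, 67.1 and 186.5 RPKM in Het and at 0.975, 1.085 and 1.61 in KO. At P14 all 6 libraries lay between 0.263 and 0.701, on 4 to 9 reads each, so the gene was below the filter there. Every P18 KO library thus stood nearer to the P14 libraries than to any P18 Het library. The fall was −5.34 ± 0.36 on the log2 scale in testis (SE, adjusted p = 0.00352), while the difference in spermatocytes was −5.71 ± 0.43 (adjusted p = 0.000189).

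Dnajb3, a J-domain protein gene of male germ cells (chromosome 1, 88204732 to 88205782, minus strand, 1 exon), was at 76.0, 42.9 and 33.2 FPKM in P18 Het testis and at 4.74, 7.30 and 7.04 in KO. Spermatocytes gave 63.5, 59.0 and 119 RPKM in Het and 5.91, 6.915 and 4.32 in KO. At P14 it was at 6.49, 4.68 and 5.47 in Het and at 3.09, 3.71 and 4.24 in KO, without overlap but not past the threshold (adjusted p = 0.285). The fall at P18 was −2.83 ± 0.32 in testis (adjusted p = 0.00441), while the difference in spermatocytes was −3.65 ± 0.29 (adjusted p = 0.000217). KO libraries of both P18 sets lay at 4.32 to 7.30, beside 4.68 to 6.49 in P14 Het testis.

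Dnajc5g, a testis relative of the synaptic cysteine string protein (chromosome 5, 31106285 to 31112526, plus strand), was at 29.5, 19.7 and 14.2 FPKM in P18 Het testis and at 4.81, 4.27 and 4.20 in KO. Spermatocytes gave 26.0, 22.3 and 40.8 RPKM in Het and 3.42, 3.53 and 3.95 in KO. It fell by 2.07 on the log2 scale in testis (SE 0.25, adjusted p = 0.00493) and by 2.83 in spermatocytes (SE 0.21, adjusted p = 0.000192). This gene was lower in KO at P14 as well, at 1.255, 1.715 and 2.11 against 3.60, 3.11 and 4.09, with no overlap (log2 difference −0.91, adjusted p = 0.110).

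Hspa2 (chromosome 12, 76404176 to 76406938, plus strand, 2 exons) was the most abundant testis member. P18 Het testis held 325, 254 and 199.8 FPKM and KO 82.0, 99.3 and 94.1. Het spermatocytes held 442, 366 and 646 RPKM and KO 109, 126 and 139. It was the highest of all members in Het spermatocytes by mean (492 ± 183, SD, n = 3, after 1 rescaling of all libraries), though within the spread of Hsp90aa1, Hsp90ab1 and Hspa5, the next in order. In KO spermatocytes it stood at 131 ± 16.8, below Hsp90ab1 (587 ± 31.8) and Hspa5 (516 ± 54.9). The fall was −1.47 ± 0.18 in testis (adjusted p = 0.00508), while the difference in spermatocytes was −1.92 ± 0.21 (adjusted p = 0.000702). At P14 it stood at 73.3, 59.6 and 72.3 in Het and at 30.04, 34.7 and 47.6 in KO, again without overlap (log2 difference −0.88, adjusted p = 0.160). Without KO replicate 3 of P14 the limma adjusted p was 0.0375. The pachytene marker sums of P14 testis were 41.8 to 65.0 in Het and 16.5 to 22.7 in KO, and their part in these P14 differences was not tested.

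Dnajb13, whose protein is part of the radial spokes of the sperm tail (chromosome 7, 100501716 to 100514960, minus strand), was at 7.85, 6.48 and 3.65 FPKM in P18 Het testis and at 1.902, 1.92 and 2.21 in KO. Spermatocytes gave 7.13, 6.505 and 11.98 RPKM in Het and 0.489, 0.865 and 1.21 in KO. The fall of −1.31 ± 0.26 in testis (adjusted p = 0.0181) missed the threshold without Het replicate 2 (adjusted p = 0.0647) or KO replicate 1 (0.0609), 2 (0.0678) or 3 (0.0575). In spermatocytes the fall was −2.72 ± 0.29 (adjusted p = 0.000652), and the P14 difference was −0.32 (adjusted p = 0.527). Its exons share 9.22% of their 50-base words with Ucp2, so some reads could be split.

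Hspa4l, an exchange factor of the Hsp110 family found in spermatocytes and spermatids (chromosome 3, 40744495 to 40796103, plus strand), was at 48.4, 37.8 and 33.1 FPKM in P18 Het testis and at 23.5, 24.4 and 22.7 in KO. Spermatocytes gave 62.2, 50.9 and 77.9 RPKM in Het and 30.4, 29.98 and 33.7 in KO. It fell by 0.73 in testis (SE 0.14, adjusted p = 0.0157), a call lost without KO replicate 1 (adjusted p = 0.0547), 2 (0.0539) or 3 (0.0625), and by 0.99 in spermatocytes (SE 0.15, adjusted p = 0.00315). Among the falling testis members it fell least. Its log2 difference at P14 was −0.33 (adjusted p = 0.333).

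The other 4 testis members were at the low end. Hspa1l, which is best known from haploid germ cells, was at 2.25 to 2.42 in P14 testis in both genotypes, at 1.07 to 1.75 in P18 testis and at 0.723 to 1.24 in spermatocytes, where it missed the filter. Its KO less Het difference was −0.00 at P14 and 0.18 in P18 testis (adjusted p = 0.996 and 0.454), and 71.4% of its 50-base words also lie in the annotated gene Gm10501, so its reads are uncertain. Dnajb7 was at 0.545 to 1.37 in P18 testis, with Het and KO overlapping. Dnajb8 was seen with 0 to 5 reads and Dnajc5b with 0 to 5 reads in any of the 18 libraries. Of these 4, Hspa1l and Dnajb7 were tested in P18 testis and neither was called.

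**Figure D1:**
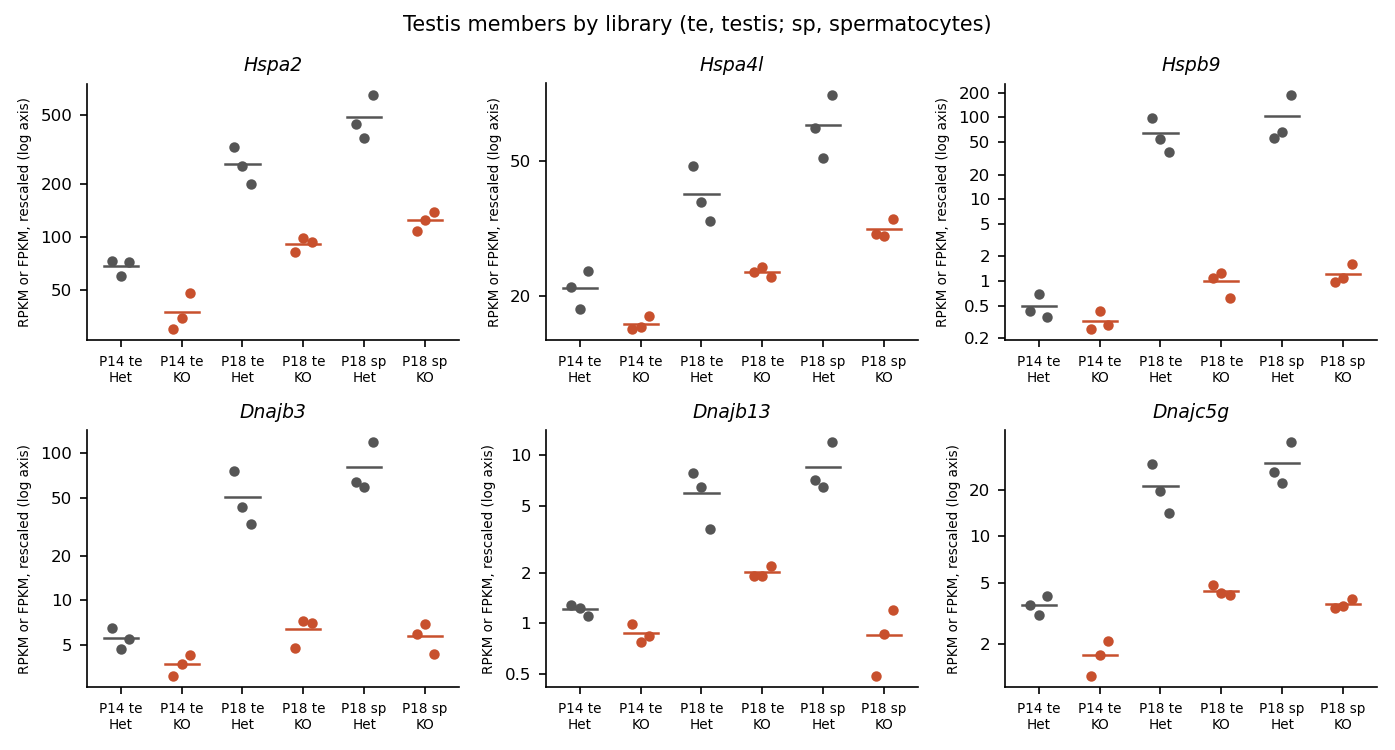
Testis members by library. The vertical axis (log scale) is RPKM or FPKM rescaled within each set of 6 libraries, points are libraries and lines group means, grey for Het and orange for KO. All P18 KO libraries lie below all P18 Het libraries of the same set for these 6 genes, and the Hspb9 panel spans from 0.263 to 186.5.

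In the same P18 Het groups, the library with the highest value was the same for all 6 falling testis members, replicate 1 in testis and replicate 3 in spermatocytes. Those libraries also had the highest sum over the 9 pachytene markers, 1047 (against 663 and 426) in testis and 1956 (against 1044 and 926) in spermatocytes. The KO sums were 83.1 to 89.3 in testis and 46.7 to 67.6 in spermatocytes, and all 9 markers fell in both sets. What part of the chaperone differences goes with these marker differences was not tested.

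At P14, no member of the 64 tested passed an adjusted p of 0.05 in limma in either direction (background over 17703 genes 0.0113% higher and 0.153% lower). At an unadjusted p under 0.05, 9 members were lower and 1 higher (background 6.28% and 2.7%). Without overlap between Het and KO libraries, 13 were lower and 1 higher (background 8.89% and 6.69%). The voom fit on recovered reads called 2 lower, Dnajc5g (−1.12, adjusted p = 0.00916) and Hsp90aa1 (−0.34, adjusted p = 0.0484). The median difference was −0.43 over the 6 testis members tested and −0.07 over the 8 stress-induced ones, beside 0.00 over all genes.

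In P18 testis, 22 of the 67 members tested fell (background 17% of 18790 genes) and 1, Hspa8, rose (background 6.52%). Het and KO libraries did not overlap for 31 lower members (background 25.4%) and 10 higher ones (background 22.9%). The median KO less Het difference was −1.39 over 8 testis members, −0.09 over 8 stress-induced, −0.11 over 9 cytosolic, −0.09 over 10 endoplasmic reticulum and −0.01 over 8 mitochondrial members, beside 0.04 over all genes. Counts and medians describe the members that passed the filter (3 or more of the 6 libraries at 1 or above). With the values as deposited, where the median of all genes moved from 0.04 to 0.12, 19 members were lower and 6 higher. Leaving out 1 library gave 13 lower without Het replicate 2, 10 without KO replicate 1, 9 without KO replicate 2 and 8 without KO replicate 3. Called in each of the 6 leave-out fits were 7 falls: Hspb9, Dnajb3, Dnajc5g, Hspa2, Dnajc27, Hspb6 and Hsp90aa1. Hspa8 was not called without Het replicate 1 (adjusted p = 0.0727), 2 (0.167) or any KO library (0.0853, 0.134 and 0.124), nor without the filter (0.0679). Of 6 macrophage markers 5 were called higher in KO testis, and of 10 Sertoli markers 1. Sertoli marker sums were 1934 to 1982 in KO against 1437 to 1798 in Het. Their part in these differences was not tested.

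In spermatocytes, 22 of 63 members fell (background 25.1% of 15926 genes) and 7 rose (background 12.7%), with no overlap for 27 lower members (background 31.4%) and 12 higher ones (background 24.1%). The medians were −2.78 over 6 testis members, −0.12 over 8 stress-induced, −0.15 over 9 cytosolic, −0.02 over 10 endoplasmic reticulum and −0.09 over 8 mitochondrial members, beside −0.00 over all genes. As deposited, 19 were lower and 11 higher (median of all genes 0.17). Of the falls, 16 were called in each leave-out fit, and of the rises 4, Hspa8, Hsp90ab1, Hspd1 and Dnajc9.

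**Figure D2:**
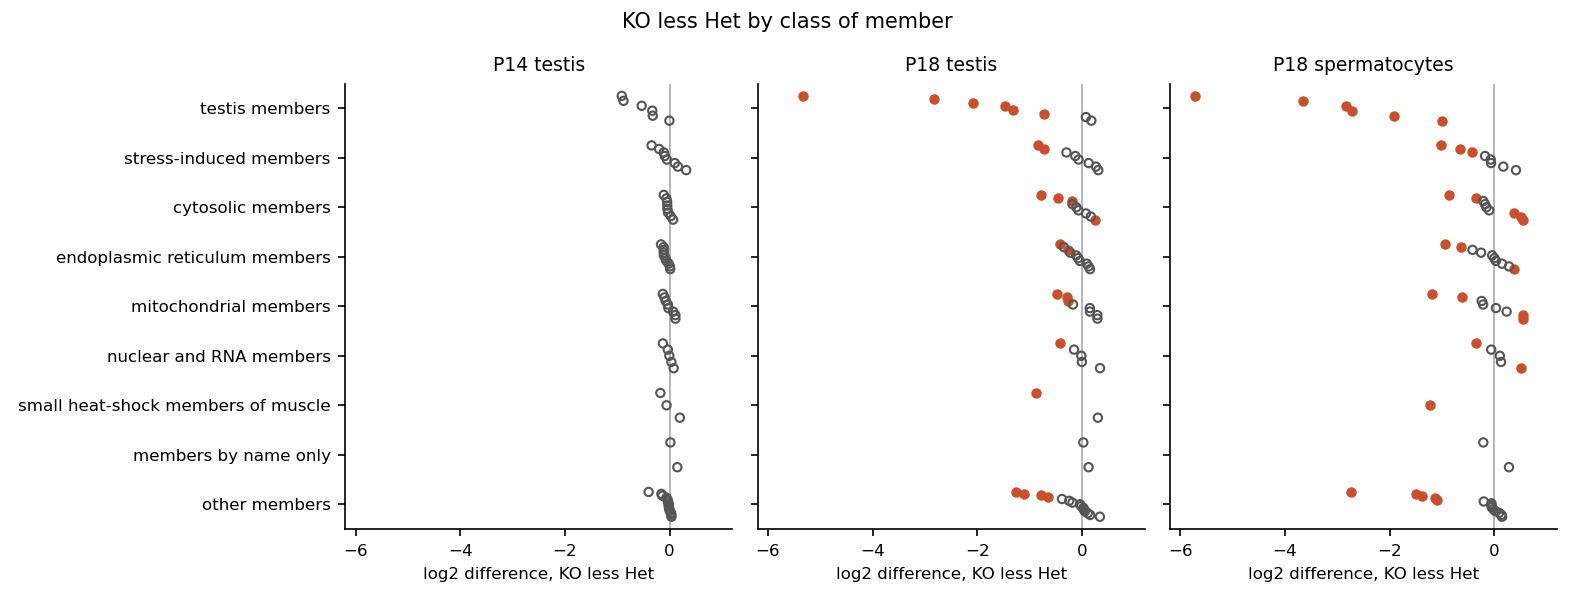
Difference between KO and Het (horizontal axis, log2 scale) for each tested member, by class, in the 3 sets. Filled orange points passed an adjusted p of 0.05 and open grey points did not. The lowest points of the testis class lie at −5.34 in P18 testis and −5.71 in spermatocytes, while stress-induced members lie between −1.01 and 0.42 in all 3 sets.

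Of 8 stress-induced members, 2 fell in P18 testis, 3 in spermatocytes and 0 rose in limma, beside 17% and 25.1% of all genes that fell. Hspa1a, the classical inducible Hsp70, was at 1.97, 3.12 and 2.51 FPKM in P18 Het testis and at 2.48, 3.60 and 3.36 in KO, with overlapping libraries (log2 difference 0.27, adjusted p = 0.327). In spermatocytes it was at 1.55 to 2.37 RPKM in Het and 1.86 to 2.502 in KO (0.17, adjusted p = 0.517). Its neighbour Hspa1b was at 3.46 ± 0.645 in Het and 4.74 ± 0.253 in KO spermatocytes (SD, n = 3), which missed the threshold (0.42, adjusted p = 0.0704) but passed it without Het replicate 2 (0.0300), in voom on reads (0.0492), with values as deposited (0.0320) and in 1 fit over all 18 libraries (0.00395). Of the 50-base words of Hspa1a, 58.8% also lie in Hspa1b, so the split of reads between this pair is uncertain.

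Hspb1 (Hsp27) and Hsph1 (a nucleotide exchange factor of Hsp70) were not called either. Hspb1 was at 28.2, 32.1 and 36.6 FPKM in P18 Het testis and at 35.1, 42.1 and 43.5 in KO (log2 difference 0.31, adjusted p = 0.109), with 50.1% of its words shared, mostly with the pseudogene Hsp25-ps1. Hsph1 stood at 11.8 ± 0.946 in Het and 11.3 ± 0.468 in KO (adjusted p = 0.566), and Dnaja1 at 29.8 ± 1.38 and 27.3 ± 1.58 (SD, n = 3, adjusted p = 0.212).

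The members of this class that fell were Dnajb1, Hsp90aa1 and, in spermatocytes, Dnajb4. Dnajb1, the main J-domain partner of inducible Hsp70 (chromosome 8, 83608193 to 83612653, plus strand), was at 47.4, 36.45 and 31.8 FPKM in P18 Het testis and at 21.8, 21.8 and 19.4 in KO. In spermatocytes it was at 46.0, 42.4 and 71.04 RPKM in Het and 23.7, 26.0 and 26.9 in KO. No libraries overlapped, and it fell by 0.84 in testis (SE 0.15, adjusted p = 0.0128) and by 1.01 in spermatocytes (SE 0.19, adjusted p = 0.00689). Without KO replicate 3 the adjusted p in testis was 0.0544.

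Hsp90aa1, the inducible cytosolic Hsp90 that germ cells also make without stress (chromosome 12, 110690605 to 110702728, minus strand), was at 705, 571 and 558 FPKM in P18 Het testis and at 392, 371 and 340.4 in KO. It fell by 0.73 there (SE 0.11, adjusted p = 0.0074) and by 0.42 in spermatocytes (SE 0.11, adjusted p = 0.0192), where Het libraries were at 467, 409 and 528 RPKM and KO at 334, 342 and 366. The call in spermatocytes was lost when Het replicate 1 (adjusted p = 0.0798) or KO replicate 1 or 2 (0.0647 and 0.0697) was left out, and with median-of-ratios rescaling (0.0542). Of its 50-base words 47.5% are shared, mostly with Gm12346. Dnajb4 fell in spermatocytes from 7.90 ± 0.668 to 4.87 ± 0.728 (SD, n = 3, −0.65, adjusted p = 0.00978) and was not called in testis (−0.30, adjusted p = 0.0859).

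Among members with general roles, 7 rises were called in spermatocytes, the only ones of the 63 members tested there (background 12.7% of all genes). Hspa8, the constitutive Hsp70 of the cytosol, was at 97.9, 95.2 and 79.7 RPKM in Het spermatocytes and at 129, 135 and 132 in KO, a rise of 0.54 ± 0.10 (SE, adjusted p = 0.00503). In P18 testis it went from 157, 169 and 182 FPKM to 198, 205 and 203 (0.26 ± 0.07, adjusted p = 0.0417). Hsp90ab1, the constitutive Hsp90, rose in spermatocytes from 397, 416 and 367 RPKM to 516, 592 and 566 (0.50 ± 0.09, adjusted p = 0.00455). Of the words of Hspa8, 39.4% are shared with other genes, among them Gm15459.

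The mitochondrial chaperonin pair rose together in spermatocytes, Hspd1 (Hsp60) from 53.9 ± 8.35 to 78.5 ± 1.14 and its lid Hspe1 (Hsp10) from 33.5 ± 5.58 to 49.2 ± 5.77 (SD, n = 3), by 0.55 (adjusted p = 0.0121) and 0.56 (adjusted p = 0.0237). Hspe1 was not called when Het replicate 1 (0.0526) or KO replicate 1 or 2 (0.0593 and 0.0848) was left out, nor without the filter (0.0591). In P18 testis both differed by 0.30 without passing (adjusted p = 0.0538 and 0.0623), and both passed in voom (0.0211 and 0.0309), as deposited (0.0373 and 0.0403), with the higher filter (0.0399 and 0.0465) and in 1 fit over all 18 libraries (0.0229 and 0.0496). Neither passed without the filter. The bodies of this pair overlap by 112 bases, and 42.1% of the words of Hspd1 are shared, mostly with Hspd1-ps3. In the same libraries 5 of 8 spermatogonia markers rose, and their part in the rises was not tested.

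Of the other rises in spermatocytes, Dnajc9, a histone chaperone with a J domain, went from 16.9 ± 1.37 to 24.4 ± 1.88 (0.52, adjusted p = 0.00693), Hspa14, a ribosome-bound Hsp70, from 18.5 ± 0.895 to 24.2 ± 0.688 (0.38, adjusted p = 0.00956) and Hspa5 (BiP), the Hsp70 of the endoplasmic reticulum, from 377 ± 46.0 to 489 ± 40.6 (SD, n = 3, 0.38, adjusted p = 0.0319). Hspa14 was not called without Het replicate 1 (0.0600). Of the 6 leave-out fits, Hspa5 was called in the 1 without Het replicate 1, and the other 5 gave adjusted p-values of 0.0952, 0.0811, 0.102, 0.0547 and 0.0869. It was also not called without the filter (0.0630) or with median-of-ratios rescaling (0.0521). Hsp90b1, the Hsp90 of the endoplasmic reticulum, stood at 311 ± 21.6 in Het and 302 ± 8.84 in KO spermatocytes (limma adjusted p = 0.725).

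**Figure D3:**
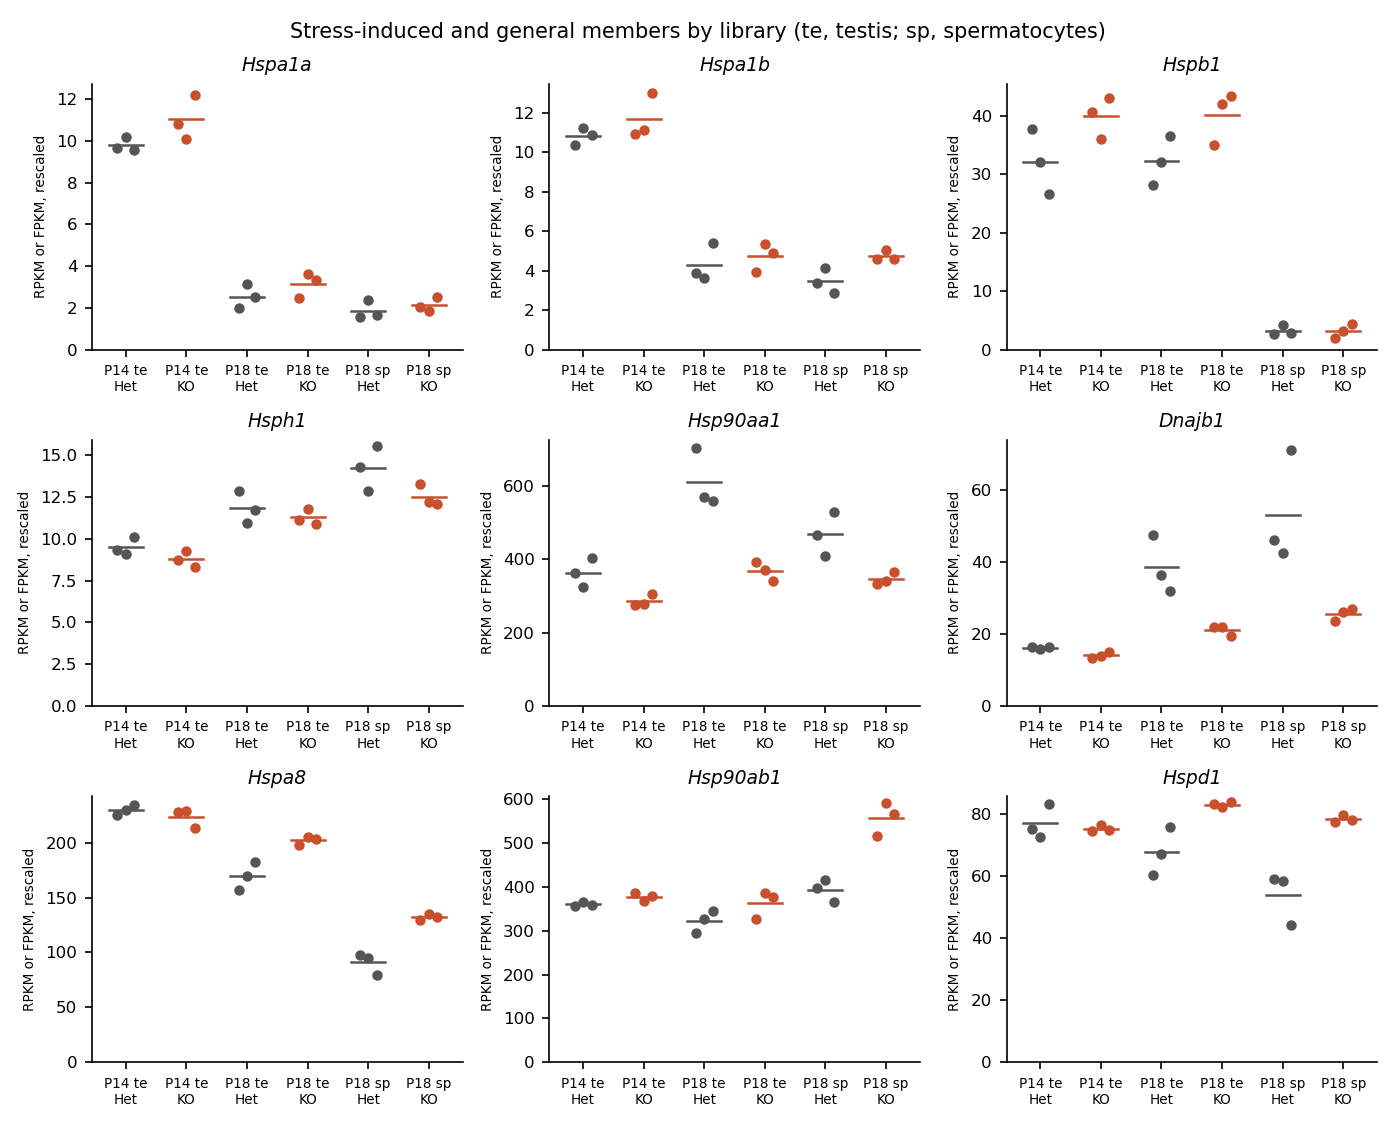
Stress-induced members (Hspa1a to Dnajb1) and general members (Hspa8, Hsp90ab1, Hspd1) by library. The vertical axis is RPKM or FPKM rescaled within each set of 6 libraries, starting at 0, with points for libraries and lines for group means (grey Het, orange KO). Dnajb1 and Hsp90aa1 are lower in all P18 KO libraries than in the Het libraries of their set, Hspa8 is higher, and Hspa1a is lower in every P18 testis library than in every P14 one.

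Falls were also found outside the testis class. Dnajb2, a J-domain protein that binds ubiquitinated clients (chromosome 1, 75236406 to 75245692, plus strand), was at 20.2, 18.6 and 35.4 RPKM in Het spermatocytes and at 2.702, 3.338 and 3.414 in KO, a fall of 2.73 (SE 0.24, adjusted p = 0.000319). In P18 testis it was at 23.2, 16.4 and 13.1 FPKM in Het and 7.37, 7.39 and 8.275 in KO, a fall of 1.11 (SE 0.20, adjusted p = 0.0135) that was not called without KO replicate 1 (0.0523) or 2 (0.0553). In neither set did Het and KO overlap.

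Dnajc27, a Rab-like GTPase with a J domain, stood at 14.4 ± 3.81 in Het and 5.61 ± 0.486 in KO testis (SD, n = 3, −1.26, adjusted p = 0.00742), and at 26.9 ± 8.86 and 9.69 ± 0.746 in spermatocytes (−1.38, adjusted p = 0.00299). Of the 60 members with a promoter 1 held TGACGTCA, the full cyclic AMP response element, near the share of 1.79% over all promoters. That member was Dnajc27, the match describes letters only, and the window ends at its start:
Dnajc27, chr12:4082514-4082573, plus strand: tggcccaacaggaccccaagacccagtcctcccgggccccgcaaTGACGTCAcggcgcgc

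Hspb6 (Hsp20), a small heat-shock protein best known from muscle, stood at 13.1 ± 2.14 in Het and 6.845 ± 0.627 in KO testis (−0.88, adjusted p = 0.0072), and at 15.15 ± 3.07 and 6.205 ± 1.22 in spermatocytes (−1.22, adjusted p = 0.003). Dnajb6, a cytosolic J-domain protein that keeps aggregates in check, fell in testis from 29.6 ± 5.39 to 16.8 ± 1.09 (−0.79, adjusted p = 0.0115, and 0.0506 without KO replicate 3) and in spermatocytes from 13.2 ± 2.89 to 6.99 ± 0.0329 (−0.86, adjusted p = 0.00499). Another 10 falls in testis lay between −0.20 (Dnaja2) and −0.79 (Dnajc4), and each was lost in 2 to 5 of the 6 leave-out fits.

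In spermatocytes the falls of Dnajc28 (−1.50, 5.93 ± 2.18 to 1.70 ± 0.135, adjusted p = 0.00331), of Dnajc15, which regulates mitochondrial import (−1.19, 9.17 ± 1.69 to 3.70 ± 0.227, adjusted p = 0.00117), and of Dnajc4 (−1.13, 17.2 ± 4.41 to 7.44 ± 0.146, SD, n = 3, adjusted p = 0.00269) were called in every leave-out fit. Dnajb14 fell by 0.95 (adjusted p = 0.0149). Hspa12a fell by 1.09 (adjusted p = 0.0359) but the call was lost with Het replicate 2 or 3 left out (0.0771 and 0.0909), with KO replicate 1 or 2 left out (0.102 and 0.0999), and without the filter (0.0859).

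Whether the KO effect differed between ages or between testis and spermatocytes was tested as an interaction. Between ages, 6 of 50 members had a lower KO effect at P18 than at P14 (background 7.35%) and 0 a higher one (background 0.309%). At an unadjusted p under 0.05, limma gave 15 lower (background 16.7%) and 3 higher (background 4.97%). Hspb9 differed by −5.06 (SE 0.43, adjusted p = 0.00178), Dnajb3 by −2.34 (0.00817), Dnajb2 by −1.01 (0.0256), Dnajb6 by −0.77 (0.0149), Hspb6 by −0.74 (0.0341) and Dnajb1 by −0.69 (0.0357). Hspb9 was below the filter in P14 testis, where a KO fall could hardly show. Its difference between ages therefore follows its P18 values and is no separate support. The count was 1 (Hspb9) without P18 Het replicate 2 and 11 without P18 Het replicate 3. It was 3 without P14 Het replicate 2, without any 1 of the P14 KO libraries, or without P18 KO replicate 1 or 2. Dnajb3 (0.0542) and Dnajb6 (0.0766) lost their calls without P18 Het replicate 2. Of the 12 leave-out fits, 8 lost Dnajb2, 10 lost Hspb6 (all but those without replicate 3 of P14 Het or P18 Het) and 10 lost Dnajb1 (all but those without replicate 1 or 3 of P18 Het). As deposited and with median-of-ratios rescaling, 4 were lower and 1 higher. Voom left Hspb9 at an adjusted p of 0.178 and Dnajb3 at 0.0970. Another 17 members were left out of this fit because the length behind their values differed between the P14 and P18 tables. In the fit with gene models not matched, 2 of these 17 had a lower KO effect at P18, Dnajc27 (−1.12, adjusted p = 0.0166) and Dnajc28 (−0.70, adjusted p = 0.0348), while Hspa2 (−0.62, adjusted p = 0.230) and Hspa4l (−0.42, adjusted p = 0.219) were not called.

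Between spermatocytes and testis, 1 of 68 members differed (background 1.22% lower) and 0 were higher (background 0.0602%). At an unadjusted p under 0.05, limma gave 11 lower (background 13.2%) and 0 higher (background 2.24%). The member past the threshold was Dnajb2, whose KO effect differed by −1.715 on the log2 scale (SE 0.35, adjusted p = 0.0442), beside a median of −0.10 over all genes. It was not called with a pseudocount of 1 (0.0568), without the filter (0.0951), with median-of-ratios rescaling (0.0855) or in voom (0.0627). Leaving out Het replicate 2 (0.0708) or KO replicate 1 (0.0994), 2 (0.0977) or 3 (0.0667) of spermatocytes, or Het replicate 2 (0.110), Het replicate 3 (0.0997) or KO replicate 1 (0.109), 2 (0.111) or 3 (0.118) of testis, also ended the call. For Hspa2 the difference between the effects in both sets was −0.53 (SE 0.31, adjusted p = 0.450).

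The age comparison in Het testis, on 50 members with 1 gene length throughout, gave 21 members higher at P18 than at P14 (background 30.4%) and 13 lower (background 31.2%). P14 values are RPKM and P18 values FPKM, so age and unit changed together and their parts were not tested. As deposited, 28 were higher and 7 lower (median of all genes 0.19 in place of 0.02). Hspb9 rose from 0.543 ± 0.195 to 59.5 ± 29.0 (SD, n = 3, log2 difference 5.75, adjusted p = 3.94e-08), Dnajb3 by 2.79, Dnajc5g by 2.14, Dnajb13 by 1.68 and Hspb6 by 1.53. These were also among the members that fell in KO at P18, and both comparisons use the same P18 Het libraries.

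Of the 7 Hspa genes compared, Hspa1a, Hspa1b, Hspa1l, Hspa8 and Hspa12b fell from P14 to P18, while Hspa4 (−0.03, adjusted p = 0.761) and Hspa5 (0.09, adjusted p = 0.366) were not called. Of the other Hspa genes, Hspa14 was left out because it had 2 values in each P14 library. The rest were left out because their gene length differed between ages. With gene models not matched, Hspa2 (1.70, adjusted p = 2.89e-05) and Hspa4l (0.70, adjusted p = 0.000956) were higher at P18. In that fit Hspa13 was lower (−0.40, adjusted p = 9.13e-05), while Hspa9 (0.0091, adjusted p = 0.904) and Hspa12a (−0.26, adjusted p = 0.0816) were not called. Hspa1a was at 9.66, 10.2 and 9.56 RPKM in P14 Het testis and at 1.97, 3.12 and 2.51 FPKM at P18, a difference of −1.98 (adjusted p = 8.31e-07). The differences were −1.47 for Hspa1b, −0.85 for Hspa1l, −0.67 for Hspa8 and −0.46 for Hspa12b (adjusted p = 5.77e-06, 6.04e-05, 1.96e-06 and 0.00205). Of the 50-base words of Hspa1a, Hspa1b, Hspa1l and Hspa8, 66.3%, 62.3%, 71.4% and 39.4% are shared with other genes. For Hspa12b the share is 0.38%, and for Hspa4 and Hspa5 it is 0%. The part of shared words in these differences was not tested. In KO testis Hspa1a stood at 10.1 to 12.2 at P14 and 2.48 to 3.60 at P18. Dnajb1 rose by 0.99 (adjusted p = 3.55e-05) and Hsp90aa1 by 0.52 (adjusted p = 0.00146), so stress-induced members went both ways with age.

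Spermatocyte values are RPKM and P18 testis values FPKM, so fraction and unit changed together and their parts were not tested. Against testis, Het spermatocytes at P18 had 25 of 68 members higher (background 27%) and 10 lower (background 31.7%). This split depended on scaling: as deposited, with the median of all genes at −0.20 in place of −0.05, 18 were higher and 19 lower, and with median-of-ratios rescaling 36 were higher and 9 lower. Of 8 testis members tested 2 were called higher, beside 27% of all genes, Hspa2 by 1.01 (adjusted p = 0.00216) and Hspa4l by 0.79. Outside that class, Dnajc27 rose by 0.98. Members of the secretory pathway rose too, Hspa5 by 0.76, Dnajc3 by 0.79 and Dnajb11, a BiP partner, by 0.84 (adjusted p = 9.3e-05, 6.45e-05 and 5.75e-05), and 7 of 10 endoplasmic reticulum members were higher.

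Hspb1 differed by −3.03 (3.29 ± 0.745 against 30.4 ± 5.33, SD, n = 3, adjusted p = 1.52e-06), Dnajb6 by −1.02, Hspb8 by −0.94, Dnaja1 by −0.86 and Hspa8 by −0.78, all lower in spermatocytes. Of their 50-base words, in the same order, 50.1%, 21.0%, 0%, 20.55% and 39.4% are shared with other genes. In the same comparison all 10 Sertoli markers were lower, and all 10 immediate-early genes were higher in the Het spermatocyte libraries, whose sums were 161.6 to 326.5 against 46.8 to 52.9 in Het testis. Of 8 stress-induced members 3 were higher and 2 lower there, beside 27% and 31.7% of all genes. Hsph1 differed by 0.37 (adjusted p = 0.00491) and Dnajb1 by 0.56 (adjusted p = 0.0259). The Dnajb1 call was lost without Het replicate 3 of spermatocytes (0.0538), without Het replicate 2 (0.0645) or 3 (0.09245) of testis, and as deposited (0.0534). Hspa1a and Hspa1b were not called (−0.27 and −0.16, adjusted p = 0.270 and 0.427). The part of these markers and of shared words in the differences was not tested.

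Ratios within a library do not depend on the scaling between libraries. The ratio of Hspa2 to Hspa8 was 2.07, 1.498 and 1.097 in P18 Het testis and 0.414, 0.485 and 0.463 in KO. In spermatocytes it was 4.51, 3.84 and 8.10 in Het and 0.841, 0.928 and 1.05 in KO, so the value of Hspa2 was above that of Hspa8 in all Het P18 libraries and in 1 of the 6 KO ones. Of the 50-base words of Hspa8 39.4% are shared with other genes, against 0% for Hspa2. Values of Hspa8 may thus be too low, and ratios near 1 do not rank the 2 genes. At P14 the ratio was 0.298 ± 0.0344 in Het and 0.169 ± 0.0480 in KO (SD, n = 3). The length behind Hspa2 differs between ages, so P14 and P18 ratios are not compared. In each set the 2 groups did not overlap, which gives the smallest exact two-sided permutation p of 3 against 3 (0.1, and 0.123 adjusted over 21 ratio comparisons), so none could reach 0.05.

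The ratio of Hsp90aa1 to Hsp90ab1 was also lower in KO, going from 1.92 ± 0.416 to 1.02 ± 0.158 in P18 testis, from 1.2 ± 0.230 to 0.624 ± 0.0401 in spermatocytes and from 1.01 ± 0.117 to 0.757 ± 0.0497 at P14, with no overlap in any set. Dnajc5g to Dnajc5 was 1.31 ± 0.514 and 0.243 ± 0.0202 in P18 testis, and Dnajb3 to Dnajb6 was 5.92 ± 1.10 and 0.818 ± 0.186 in spermatocytes. Hspa4l to Hspa4 was 0.773 ± 0.0962 and 0.426 ± 0.0226 in spermatocytes. The ratio of Hspd1 to Hspe1 stood at 1.61 ± 0.0399 in Het and 1.61 ± 0.166 in KO spermatocytes (exact permutation p = 0.8).

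**Figure D4:**
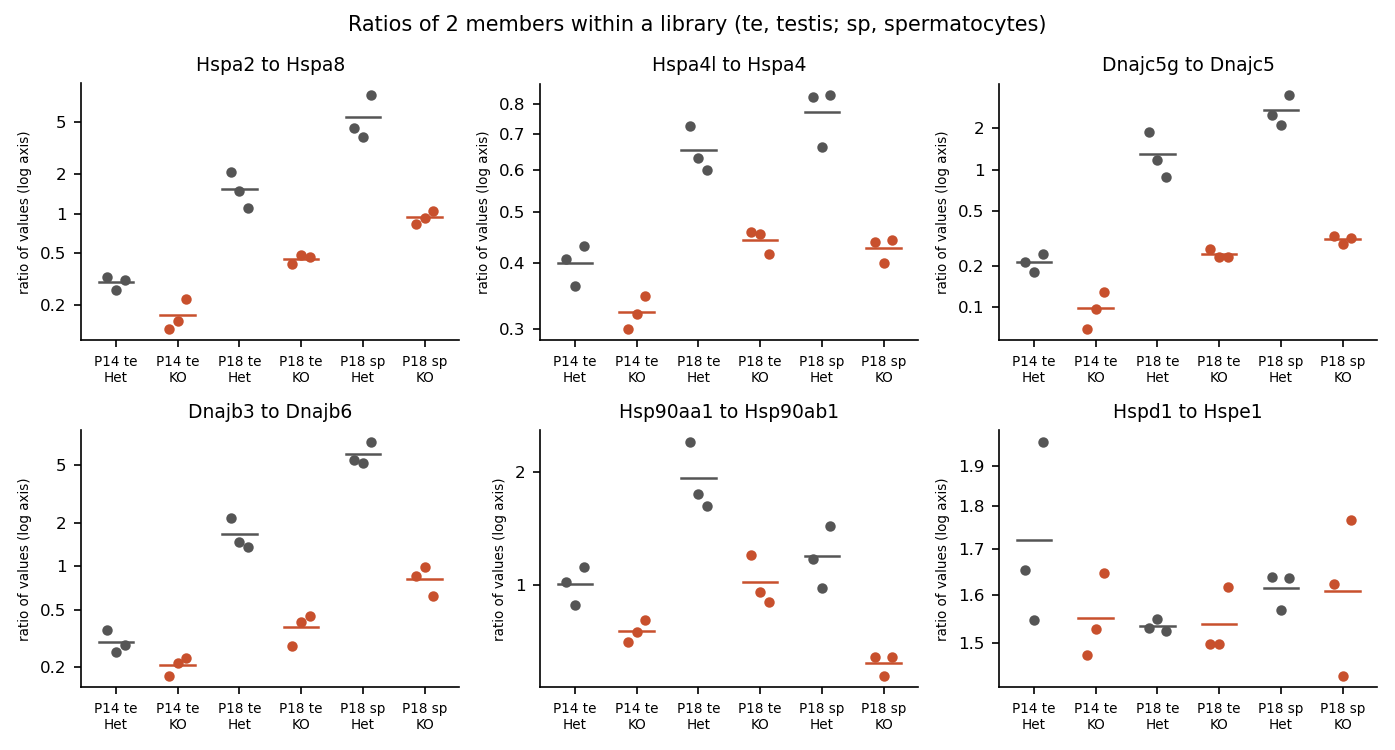
Ratio of the values of 2 members in each library (vertical axis, log scale, deposited RPKM or FPKM) over the 6 groups, with points for libraries and lines for group means (grey Het, orange KO). For the first 5 ratios the KO libraries lie below the Het libraries of their set, and Hspd1 to Hspe1 stays between 1.44 and 1.96. The gene lengths behind Hspa2 and Hspa4l differ between P14 and P18, so their ratios are not compared across ages.

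Genes that work with these chaperones were taken from lists made by name. Of the CCT chaperonin, which folds actin and tubulin, 8 of 9 genes tested fell in P18 testis (median −0.41) and 4 of 9 in spermatocytes (median −0.25). Over all genes, 17% fell in P18 testis, and 25.1% fell and 12.7% rose in spermatocytes. Cct6b, its testis subunit, fell from 31.5 ± 16.4 to 3.51 ± 0.359 in testis (−2.87, adjusted p = 0.0055) and differed by −3.88 in spermatocytes (adjusted p = 0.000156), and Tcp1 differed by −0.90 and −1.03 (adjusted p = 0.0112 and 0.00395). Of 24 co-chaperones, 6 fell in testis, and 8 fell and 3 rose in spermatocytes, near those shares. Pdcl2, a germ-cell phosducin-like protein, differed by −2.31 in testis and −3.41 in spermatocytes (adjusted p = 0.00504 and 0.000263), and Bag5, an Hsp70 exchange factor, by −1.16 and −2.57 (adjusted p = 0.00938 and 0.000868). Fkbp6, an Hsp90 partner of the piRNA pathway, rose in spermatocytes by 0.44 (adjusted p = 0.00527) and Fkbp5 by 0.54 (adjusted p = 0.0126, and 0.0553 without KO replicate 3).

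The list of heat-shock factors also holds Hsbp1 and Hsf2bp, which are not factors themselves. Of its 5 genes tested, 3 fell in each P18 set, Hsbp1 among them, and 1 rose in spermatocytes. Over all genes, 17% fell in testis, and 25.1% fell and 12.7% rose in spermatocytes. Hsf5, a factor of spermatocytes, was at 34.8 ± 9.40 in Het and 10.6 ± 0.788 in KO testis (−1.64, adjusted p = 0.00439), and at 52.0 ± 18.3 and 12.7 ± 1.47 in spermatocytes (−1.94, SD, n = 3, adjusted p = 0.00119). Hsbp1, which binds heat-shock factor, differed by −0.77 and −0.94 (adjusted p = 0.00662 and 0.00826). Hsf2 rose in spermatocytes by 0.56 (adjusted p = 0.0185), a call lost when Het replicate 1 (0.0511) or KO replicate 2 or 3 (0.0761 and 0.0637) was left out. Of 12 organelle chaperones 3 fell in testis, and 4 fell and 1 rose in spermatocytes, near the shares over all genes. Clgn, the germ-cell lectin chaperone of the endoplasmic reticulum, differed by −1.99 and −2.36 (adjusted p = 0.00396 and 0.000572), and Calr rose by 0.25 in spermatocytes (adjusted p = 0.0449), a call that every leave-out fit lost (0.0592 to 0.166). At P14 none of these 4 lists had a gene past the threshold.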

How the data were processed

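Per the submitters' processing notes, reads were handled with CASAVA 1.9, STAR 2.6.1a, featureCounts and edgeR 3.28.1 on GRCm38. The authors deposited RPKM values for P14 testis and P18 spermatocytes, per the file headers. The authors deposited FPKM values for P18 testis, per the file headers. Totals were recovered from the steps between low values, of which 91.9% to 99% were whole reads within a tolerance of 0.01.

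Values were rescaled by trimmed means (TMM, trims of 30% and 5%) and log2(value + 0.5) was fitted with limma 3.58.1 (R 4.3.3, intensity trend, robust), on genes at 1 or above in at least 3 libraries of the fit. Each KO comparison used its own 6 libraries, and the age, fraction and interaction contrasts used 12. Adjusted p-values in the text are from limma. Age contrasts used symbols with the same gene length in both tables. Groups follow the labels. Ratios, promoters and shared 50-base words were computed in Python 3.11.15 with numpy 2.4.6, pandas 2.3.3, scipy 1.17.1 and matplotlib 3.10.9. The fits were tested on simulated data.

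Alternatives were another pseudocount, filter, scaling, a voom fit on recovered reads, the replicate number as a block, 1 fit over all 18 libraries and leaving out each library. Members and lists were chosen with earlier results of these data known. The rule for naming took all testis members, up to 8 called members in each direction without overlap per KO comparison, up to 5 in the others and up to 2 of each pathway list. Members named beyond it were named after their values were seen.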

Additional observations from a re-analysis of the deposited data

Results flagged for a closer look

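The KO effect differed between P14 and P18 testis, by a test of the difference itself, for 6 members, all with a lower effect at P18. The difference of effects on the log2 scale was −5.06 for Hspb9, −2.34 for Dnajb3 and −1.01 for Dnajb2. It was −0.77 for Dnajb6, −0.74 for Hspb6 and −0.69 for Dnajb1. Of these 6, Hspb9 was called in each of the 12 fits that leave out a library, and voom did not call it. Hspb9 was below the filter in P14 testis, so its difference between ages follows its P18 values. Between spermatocytes and testis of P18 the KO effect differed for Dnajb2, by −1.715, a call lost in 9 of 12 such fits.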

How the results depend on the processing

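The number of members called lower in KO was within 1.5 times the value given for P18 testis and spermatocytes under the alternatives other than leaving out a library, and in P14 testis it was 2 in voom in place of 0. Members higher in P18 testis, 1 as given, numbered 0 without the filter, 4 with a minimum of 5, 6 as deposited, 2 with median-of-ratios rescaling, 4 in voom and 5 in 1 fit of 18 libraries. In spermatocytes 11 were higher as deposited and 11 in 1 fit of 18 libraries, in place of 7. Members lower with age numbered 7 as deposited and 20 with gene models not matched, in place of 13, and 19 were lower in spermatocytes than testis as deposited, in place of 10. The age interaction had 1 higher member as deposited, 1 with median-of-ratios rescaling and 1 with models not matched, and 2 lower in 1 fit of 18 libraries. The fraction interaction had 2 higher members in that fit, and 0 lower with a pseudocount of 1, without the filter and with median-of-ratios rescaling. With the replicate number as a block, 17 members were lower and 2 higher in P18 testis, and 0 lower in the fraction interaction. Hspb1 was then called higher in P18 testis (adjusted p = 0.0426), while Hspa8 there (0.0701), Dnajb1 (0.0601) and Hspb6 (0.0586) in the age interaction and Dnajb2 in the fraction interaction (0.0788) were not called. Same-numbered Het and KO libraries correlated at 0.0841, 0.083 and 0.105 in P14 testis, at 0.0265, −0.0121 and −0.0305 in P18 testis and at 0.239, 0.0566 and 0.0927 in spermatocytes, so the numbers were not taken as pairing. In P14 testis and spermatocytes every library correlated best with its own number, a hint from the data only.

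Leaving out 1 library gave 0 to 1 members lower and 0 higher in P14 testis, 8 to 25 lower and 0 to 3 higher in P18 testis, and 16 to 23 lower and 5 to 7 higher in spermatocytes. It gave 18 to 21 higher and 11 to 14 lower with age, 21 to 30 and 9 to 15 between fractions, 0 to 2 and 1 to 11 in the age interaction and 0 and 0 to 1 in the fraction interaction. Differences that changed sign were all uncalled. As deposited, P14 Hspa1l was at 0.0017, P18 testis Hsph1 at 0.0236 and, in spermatocytes, Hspb1 at 0.0899, Hsph1 at 0.0025, Dnaja1 at 0.118 and Hspa4 at 0.0346. P14 Hspa1l was at 0.0039 with median-of-ratios rescaling and 0.0081 in 1 fit of 18 libraries, where spermatocyte Dnaja1 was at 0.0121. With 1 library left out, P14 differences ranged from −0.0286 to 0.0323 for Hspa1l, −0.101 to 0.0153 for Dnajb4, −0.0351 to 0.0050 for Hspa4 and −0.0456 to 0.0248 for Hspd1. In P18 testis they ranged from −0.144 to 0.198 for Dnajb7 and −0.0047 to 0.245 for Hspa1b, and in spermatocytes from −0.295 to 0.185 for Hspb1. The cause was not tested. Dnajb8 and Dnajc5b, under 10 reads in every library, were below the filter, and the part of depth in this was not tested.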
